A study of Mus musculus with 6 samples.

Results

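The Cyp4 fatty acid omega-hydroxylases are cytochrome P450 enzymes of the endoplasmic reticulum. Members were taken as every probe whose symbol in the array tables was Cyp4a10, Cyp4a14, Cyp4a12a, Cyp4a12b, Cyp4f13, Cyp4f14, Cyp4f15, Cyp4f16 or Cyp4v3. That gave 10 of the 45281 probes, and 1 further Cyp4f16 probe came in through an older clone name, so that 8 of the 9 genes had a probe. No probe carried the name Cyp4a10. Livers had been collected after a 24 h fast from male C57BL/6 animals fed normal chow, namely 3 wild-type mice and 3 littermates with a Creb3l3 knockout. Creb3l3 encodes CREBH, a membrane-anchored transcription factor of the hepatocyte. How the knockout allele was made, and how old the mice were, are not stated in the sources used here. Each mouse gave 1 Illumina WG-6 bead array, so a replicate is an animal, and the number of arrays limits the precision.

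An omega-hydroxylase adds a hydroxyl group to the far end of a fatty acid. Alcohol and aldehyde dehydrogenases then turn that end into a second carboxyl group, and the resulting dicarboxylic acid is shortened in peroxisomes. In the mouse liver Cyp4a10 and Cyp4a14 are classical targets of the nuclear receptor PPARA and are induced by fasting. Cyp4a12a and Cyp4a12b are close copies that are higher in males, and enzymes of the Cyp4f group also act on leukotrienes. Cyp4v3 is the mouse counterpart of human CYP4V2, the gene of Bietti crystalline dystrophy. The comparison asks whether these transcripts of the fasted liver differ when Creb3l3 is missing.

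In RefSeq's promoter windows of GRCm38.p6, which run from 250 bases before to 50 bases after a gene's start, 5 of the 9 members were matched, Cyp4v3, Cyp4f13, Cyp4f14, Cyp4f15 and Cyp4f16. The windows of Cyp4v3 (chr8:45333114-45333413, minus strand), Cyp4f16 (chr17:32536307-32536606, plus strand) and Cyp4f13 (chr17:32947312-32947611, minus strand) are shown because the groups did not overlap for Cyp4v3 and Cyp4f16, while Cyp4f13 was the steadiest member across the 5 arrays without knockout replicate 3. Each is written 5′ to 3′ on the gene's strand, and capitals mark the GC box GGGCGG and the CCAAT box, on either strand.
Cyp4v3: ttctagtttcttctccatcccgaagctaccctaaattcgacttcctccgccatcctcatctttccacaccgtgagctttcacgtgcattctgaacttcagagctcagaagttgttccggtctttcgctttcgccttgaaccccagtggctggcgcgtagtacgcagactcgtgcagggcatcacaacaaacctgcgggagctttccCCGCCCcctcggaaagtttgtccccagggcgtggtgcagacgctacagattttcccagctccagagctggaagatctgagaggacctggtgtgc
Cyp4f16: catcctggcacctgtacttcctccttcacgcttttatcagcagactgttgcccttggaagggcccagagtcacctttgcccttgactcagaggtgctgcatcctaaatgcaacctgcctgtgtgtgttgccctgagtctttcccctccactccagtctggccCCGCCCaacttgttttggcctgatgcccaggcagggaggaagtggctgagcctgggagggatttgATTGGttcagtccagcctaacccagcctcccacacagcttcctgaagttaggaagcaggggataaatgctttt
Cyp4f13: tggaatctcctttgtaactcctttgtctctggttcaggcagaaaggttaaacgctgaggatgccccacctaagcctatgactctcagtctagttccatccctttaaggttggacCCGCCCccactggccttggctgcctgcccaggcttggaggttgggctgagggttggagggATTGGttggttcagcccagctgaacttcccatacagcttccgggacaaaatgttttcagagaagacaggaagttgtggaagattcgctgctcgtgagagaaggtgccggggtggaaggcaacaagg

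These windows were searched on both strands for the cAMP response element TGACGTCA, its shorter form TGACG, the PPAR response element (a direct repeat of AGGTCA with 1 base between the copies) and a single AGGTCA, the GC box GGGCGG, the CCAAT box CCAAT and the TATA box TATAAA. The shorter form lies within TGACGTCA, and the single AGGTCA within the direct repeat. A GC box was found once each in the Cyp4v3, Cyp4f13, Cyp4f15 and Cyp4f16 windows, in every case on the opposite strand. Its first base in the window lay at -44 from the gene's start in Cyp4v3, -88 in Cyp4f16, -136 in Cyp4f13 and -231 in Cyp4f15. Of all 32851 promoter windows 35.7% held a GC box. A CCAAT box stood in every Cyp4f window, including each of the 4 start sites of Cyp4f14, and in 37.4% of all windows, but not in that of Cyp4v3. The windows of Cyp4f14 start sites 1, 2 and 3 overlap and hold the same CCAAT box. None of the 8 member windows held TGACGTCA or its shorter form TGACG, and none held TATAAA, the direct repeat or a single AGGTCA. Of all windows 1.79% held TGACGTCA, 20.8% TGACG, 0.0396% the direct repeat, 16.3% AGGTCA and 13.6% TATAAA. The Cyp4f16 window matched that of its neighbour Cyp4f37 at 227 of 235 aligned positions. No probe carried the name Cyp4f37, and whether the Cyp4f16 probes also bind its transcript was not tested. By gene order in RefSeq, Cyp4a12a lies beside Cyp4a12b and Cyp4a14 beside Cyp4a10, and Cyp4f14 lies beside Cyp4f13.

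The arrays were unequal in brightness. A detection p under 0.05, the array software's measure of signal over background, was reached by 15504 to 16224 probes on the wild-type arrays, and by 11846, 15867 and 4302 probes on those of knockout replicates 1, 2 and 3. Over all probes the normalized log2 signals of the third knockout correlated with the other arrays at 0.676 to 0.697, and those of the other 5 arrays with each other at 0.973 to 0.993. Single genes are therefore described on the 5 arrays without knockout replicate 3. The change over all 6 is given beside it for the members only. Creb3l3 itself fell 4.99-fold (adjusted p = 0.00271 by limma) in the 5 arrays, and where its probe lies relative to the deleted part is not known here. Of 8 hepatocyte marker genes, 6 were detected on each of the 5 arrays, and the probes of Tat and Fgb were not.

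In the fasted knockout liver none of the 8 measured omega-hydroxylase genes was called different. Cyp4v3 stood lowest against wild type, with a mean 1.68-fold lower on the first 2 knockout arrays, and Cyp4f16 stood highest, at 1.58-fold more, from a signal near background. Cyp4a14, the fasting-induced hydroxylase, was at 1.03 times its wild-type level. Of the 8 genes, 4 lay above 0 and 4 below on the log2 scale, with a median change of -0.01 beside -0.01 for all tested genes. By limma with Benjamini-Hochberg adjustment 0 were called at an adjusted p under 0.05, where 0.342% of 14345 tested probes were (0.0627% higher and 0.279% lower in the knockout). At an unadjusted p under 0.05, 1 was higher (Cyp4f16) and 1 lower (Cyp4v3), beside 12.1% of all tested probes, 4.66% higher and 7.47% lower. Across all 6 arrays 0 were called, as were 0% of all 14494 tested probes, and at an unadjusted p under 0.05 there were 0 higher and 1 lower, Cyp4v3, where 3.85% of all probes passed, 0.552% higher and 3.3% lower. The groups did not overlap for 2 of the 8 members in the 5 arrays and for the same genes in the 6, where 29.3% and 17.4% of all tested probes separated. In this bulk tissue, fewer cells of a type and less RNA per cell cannot be told apart.

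**Figure D1:**
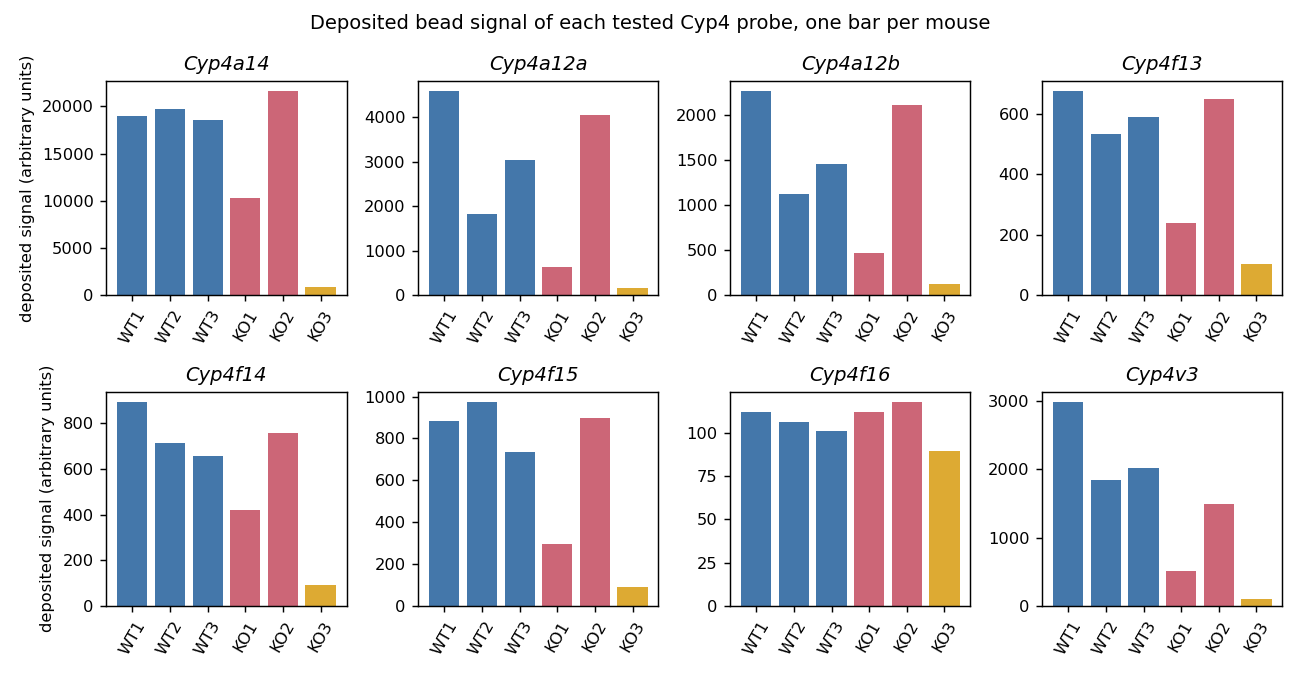
Bars give the deposited, unnormalized bead signal (arbitrary units, each panel with its own axis from 0) of the tested probe of each member in the 3 wild-type mice (blue), knockout replicates 1 and 2 (red) and knockout replicate 3 (yellow). Knockout replicate 3 is the lowest array in every panel, and for Cyp4v3 knockout replicate 2, at 1485, lies below the wild-type mice at 1850 to 2990.

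The deposited Cyp4a14 signal, in arbitrary units, was 18944, 19677 and 18568 for the wild-type livers and 10234, 21605 and 828 for the knockout livers, here and below in the order of replicates 1, 2 and 3. Knockout replicate 2 was thus the highest of the 6 mice, and the lower values came from both dim arrays. Normalization put the wild-type livers at log2 signals of 13.91, 14.22 and 14.09 and the first 2 knockout livers at 14.04 and 14.20, and the groups overlapped. The log2 change was 0.04 ± 0.17 (SE; adjusted p = 0.933, limma), with a 95% interval of 0.787- to 1.35-fold. In the 6 arrays knockout replicate 3 stood at 13.88, and the change was 0.05 ± 0.20 (SE; adjusted p = 0.894). That value depended on the normalization: it was 1.34 ± 0.70 (SE) with cyclic loess and -1.74 with median scaling, and 0 alternatives were called. The probe is among the brightest: on the array of knockout replicate 2 it reached 76.4% of the highest signal of any probe, and whether that compresses a change was not tested.

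Cyp4a12a varied widely among the wild-type mice. The probe read 4584, 1811 and 3034 on the wild-type arrays before normalization, and 620, 4049 and 152 on the knockout arrays. Normalized log2 signals ran from 10.70 to 11.76 in wild type, a 2.08-fold range, and were 10.53 and 11.63 in knockout replicates 1 and 2. The first knockout mouse was therefore below all wild-type mice and the second near the top of their range. The standard deviation among wild-type mice, 0.55, was larger than that of 99.2% of tested probes. The log2 change was -0.24 ± 0.39 (SE; adjusted p = 0.816), with an interval of 0.455- to 1.57-fold. Over all 6 arrays it was 0.03 ± 0.46 (SE; adjusted p = 0.974).

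Its copy Cyp4a12b read 2264, 1119 and 1457 on the wild-type arrays and 469, 2108 and 121 on the knockout arrays before normalization, the same order of the 6 mice as for Cyp4a12a. The normalized values in wild type ran from 9.99 to 10.70, a 1.64-fold range. On the normalized scale knockout replicates 1 and 2 stood at 10.09 and 10.68. Again the groups overlapped, at a difference of 0.02 ± 0.26 (SE; adjusted p = 0.982) in log2 units, or 0.669- to 1.53-fold by its interval. Over all 6 arrays the difference was 0.27 ± 0.35 (SE; adjusted p = 0.693). Its wild-type standard deviation, 0.36, exceeded that of 95% of tested probes. Whether the probes of the Cyp4a12 pair separate their transcripts was not tested, so the shared order is not counted as a second observation.

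Cyp4f13 varied least among the 5 mice, but not among all 6. Its probe read 676, 536 and 591 on the wild-type arrays and 240, 651 and 104 on the knockout arrays before normalization. On the normalized log2 scale the wild-type livers were at 8.82, 8.83 and 8.98, and knockout replicates 1 and 2 were both at 8.83. Both knockout mice thus lay inside the wild-type range. The log2 change was -0.05 ± 0.16 (SE; adjusted p = 0.923), with an interval of 0.756- to 1.24-fold. With the sixth array, on which knockout replicate 3 stood at 10.03 and so 1.40 above the wild-type mean, the change was 0.44 ± 0.43 (SE; adjusted p = 0.656).

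Cyp4f14, a hydroxylase of the leukotriene-metabolizing group, differed between the knockout mice. Before normalization the wild-type arrays read 894, 712 and 656, and the knockout arrays 422, 758 and 91.4. After normalization wild type stood at 9.28, 9.28 and 9.15, knockout replicate 1 at 9.93 and knockout replicate 2 at 9.08. The first was above and the second below all wild-type mice, so the pooled log2 change of 0.27 ± 0.25 (SE; adjusted p = 0.677) describes neither. Over all 6 arrays, with knockout replicate 3 at 7.94, it was -0.17 ± 0.45 (SE; adjusted p = 0.834). With the dim knockout replicate 1 as the lone knockout array, on the assumption that a lone sample has the spread of the other group, the change was 0.70 ± 0.16 (SE) and was called (adjusted p = 0.0263), in a fit that called 16.7% of 13351 probes (5.89% higher and 10.8% lower). With knockout replicate 2 alone it was -0.15 (adjusted p = 0.755), in a fit that called 0.29% of 14122 probes (0.0921% higher and 0.198% lower).

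Cyp4f15 read 883, 974 and 736 on the wild-type arrays and 295, 898 and 87.5 on the knockout arrays before normalization, the last not detected. The normalized wild-type values were 9.26, 9.77 and 9.33, and knockout replicates 1 and 2 stood at 9.27 and 9.34, within the wild-type range. The log2 change was -0.15 ± 0.20 (SE; adjusted p = 0.782), with an interval of 0.659- to 1.24-fold. Across all 6 arrays it was -1.29 ± 0.95 (SE; adjusted p = 0.653), because the undetected knockout replicate 3 was placed at 5.62.

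Cyp4f16 had 4 probes, of which 1 passed the detection filter. That probe read 113, 107 and 101 on the wild-type arrays and 112, 118 and 89.5 on the knockout arrays, the last not detected, while the median signal of an array was 83.7 to 95. Deposited signals of the groups overlapped. Only after background correction and normalization did the 5 arrays separate, with the wild-type livers at 5.07, 5.07 and 4.83 and the first 2 knockout livers at 6.07 and 5.23. The log2 change was 0.66 ± 0.25 (SE; adjusted p = 0.381), a 1.58-fold higher mean with an interval of 1.06- to 2.36-fold. Such a separation, with knockout arrays above all wild-type arrays, was met by 12.9% of tested probes. In the 6 arrays, where the undetected knockout replicate 3 stood at 6.95, it was met by 3.99%, and the change was 1.09 ± 0.47 (SE; adjusted p = 0.653). Without background correction the change was 0.22. With knockout replicate 2 alone it was 0.27, and with the dim replicate 1 alone 1.04. The shares of all probes that these fits called are given above with Cyp4f14. The other 3 probes, including the one under a clone name, were detected on at most 1 of 6 arrays and have no fold change here.

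**Figure D2:**
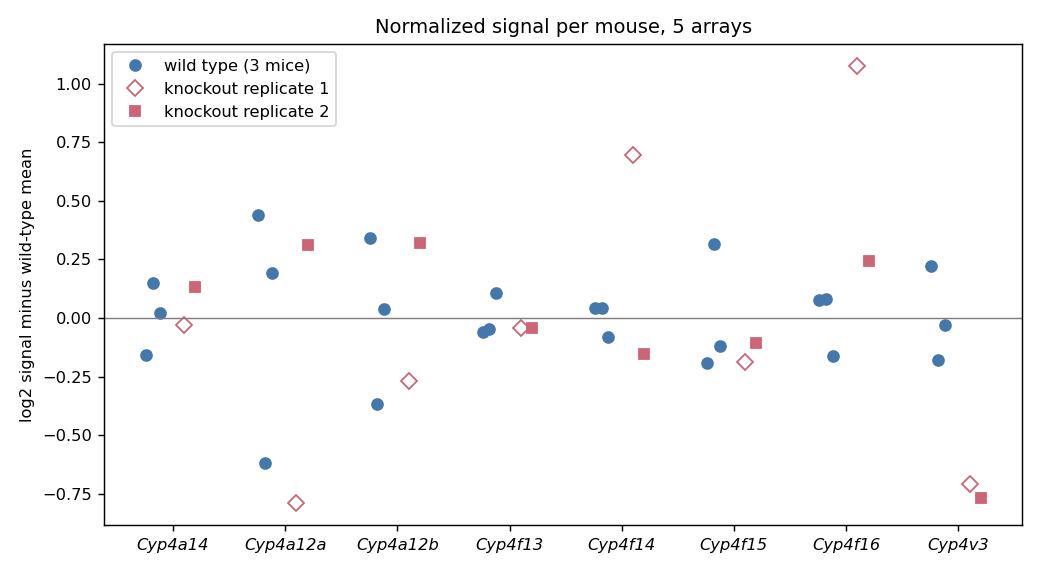
Points give each mouse's normalized log2 signal minus the mean of the 3 wild-type mice, for the 8 tested probes in the 5 arrays (circles wild type, open diamonds knockout replicate 1, squares knockout replicate 2). Both knockout points lie below the wild-type points for Cyp4v3 and above them for Cyp4f16, and for Cyp4f14 they lie on opposite sides.

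Cyp4v3 was the member with the smallest p. Before normalization its probe read 2990, 1850 and 2018 on the wild-type arrays and 509, 1485 and 104 on the knockout arrays. Every knockout array was thus below every wild-type array. The dim arrays of knockout replicates 1 and 3 also read below every wild-type array for the tested probe of every other member except Cyp4f16. On the bright array of knockout replicate 2 the Cyp4v3 signal was 0.65 times the wild-type mean. How many of all probes separate before normalization was not computed. After it the wild-type livers were at log2 signals of 11.13, 10.73 and 10.88, and the first 2 knockout livers at 10.20 and 10.14. Against the wild-type mean both knockout mice stood at similar distances, -0.71 and -0.78. The second of these was lower than for all but 1.6% of tested probes, the first lower than for all but 8.9%. The log2 change was -0.75 ± 0.18 (SE; adjusted p = 0.197), with an interval of 0.450- to 0.790-fold, and did not pass. Groups separated with the knockout lower were met by 16.4% of tested probes. In the 6 arrays knockout replicate 3 stood at 10.05, still below wild type at 10.48 to 10.87, with a change of -0.70 ± 0.21 (SE; adjusted p = 0.653) where 13.4% of probes separated that way. On that dim array 53.1% of tested probes stood lower against their wild-type mean than Cyp4v3 did.

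Over 13 alternatives in the 5 arrays the Cyp4v3 change ran from -1.48 to -0.64, was negative in each, and was called in 2. These were a trended and robust variance (adjusted p = 0.0439, with 0.85% of all probes called, 0.209% higher and 0.641% lower) and the fit with knockout replicate 1 alone. The latter put Cyp4v3 at -0.72, and the share of all probes it called is given above with Cyp4f14. The value of -1.48 came from median scaling, which moved the median of all tested probes to -0.42. Across the 6 arrays, array weights called 3 members, Cyp4v3 lower with -0.73 and Cyp4f14 and Cyp4f16 higher with 0.59 and 0.94, in a fit that called 19.5% of all probes (7.11% higher and 12.4% lower). Whether the Cyp4v3 difference is larger than that of Cyp4a14 was not tested.

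**Figure D3:**
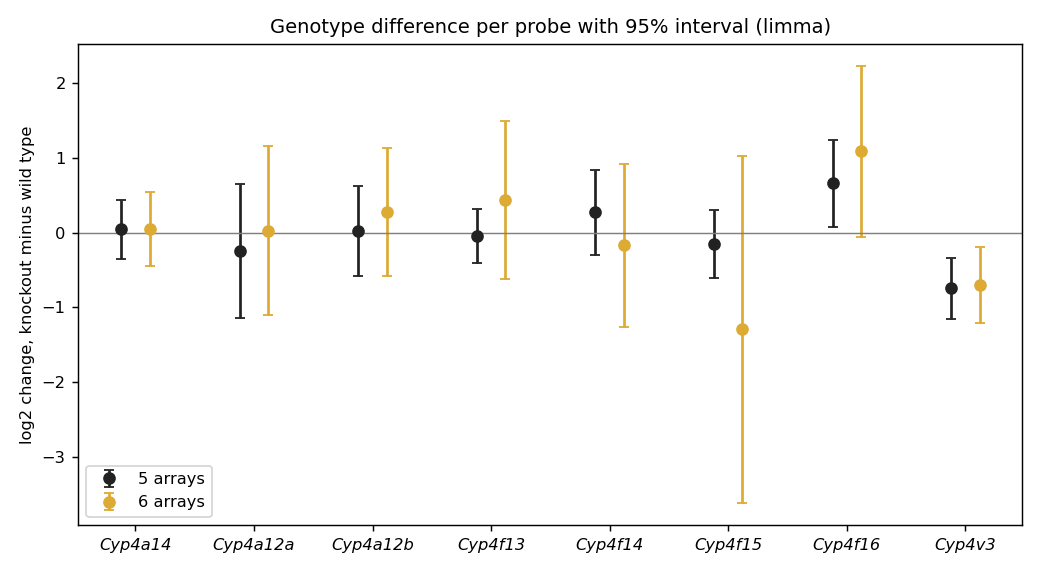
Points give the log2 difference, knockout minus wild type, of each tested probe and bars its 95% interval from limma, in the 5 arrays (black) and in all 6 (yellow). The interval excludes 0 for Cyp4v3 in both fits (-1.15 to -0.34 and -1.21 to -0.19) and for Cyp4f16 in the 5 arrays (0.08 to 1.24), before adjustment over all probes.

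**Figure D4:**
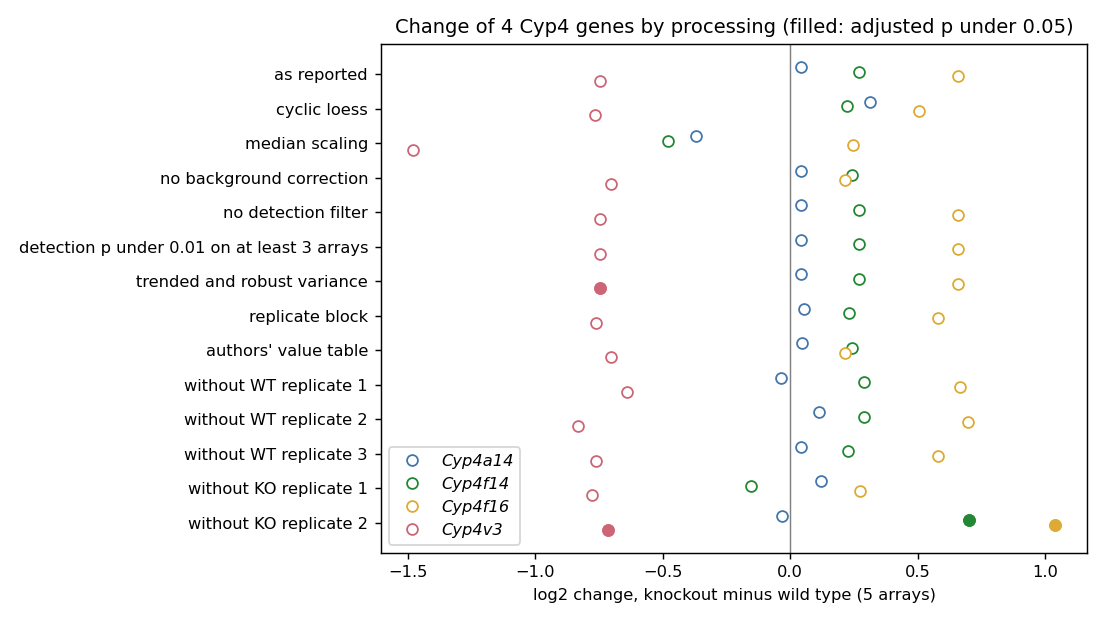
The log2 change in the 5 arrays is plotted for Cyp4a14, Cyp4f14, Cyp4f16 and Cyp4v3 as reported and under each of 13 alternatives, filled where the adjusted p was under 0.05. Cyp4v3 stays between -1.48 and -0.64, whereas Cyp4a14 lies on both sides of 0, between -0.37 and 0.31.

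Genes whose profile over the 5 arrays was nearest to a member were found by the root mean square difference of log2 signals centred on the wild-type mean. For Cyp4v3 these were LOC100047323, Ralgps2, Ces3b, Cxcl12 and Atxn2, at 0.057 to 0.10, and their log2 changes ran from -0.76 to -0.59. For Cyp4f16 they were Map3k6, Asic5, Zfp30, Armcx1 and Nagpa, at 0.074 to 0.091, and each stood higher on the dim knockout replicate 1, by 0.92 to 1.22, than on knockout replicate 2, by 0.05 to 0.34. None of the 10 was called.

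Among other Cyp4 genes, 7 of 12 had a probe and 2 were tested. Cyp4a31, a neighbour of Cyp4a10, read 5472, 5508 and 5192 on the wild-type arrays and 2572, 5711 and 371 on the knockout arrays before normalization. Its log2 change was 0.14 ± 0.20 (SE; adjusted p = 0.796), with a 95% interval of -0.31 to 0.59. Cyp4b1, a hydroxylase best known from the lung, stood at 0.43 ± 0.19 (SE; adjusted p = 0.411).

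P450 enzymes draw electrons from partner proteins, and all 4 such genes listed were tested, with 0 called and a median of 0.01. Por, the reductase that serves the microsomal P450s, stood at -0.79 ± 0.22 (SE; adjusted p = 0.255), at -1.08 in knockout replicate 1 and -0.50 in knockout replicate 2. Cytochrome b5, Cyb5a, stood at -0.13, its partner Cyb5r3 at 0.14 and Cyb5b at 0.24. The next enzymes of the route, alcohol and aldehyde dehydrogenases, had 8 of 11 genes tested, 0 called, 4 on each side of 0 and a median of -0.03. Aldh3a2, the fatty aldehyde dehydrogenase, stood at -0.70 ± 0.23 (SE; adjusted p = 0.325). Aldh1b1, a mitochondrial aldehyde dehydrogenase, stood at 1.66 ± 0.28 (SE; adjusted p = 0.0661), from a normalized log2 mean of 6.11 in wild type to 7.77 in the knockout. Its change ran from 0.95 to 1.95 over 13 alternatives and was called in 4 of them. Of the others with the smallest p, Adh7 stood at -0.36 and Aldh1a1 at 0.23.

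Peroxisomal oxidation of dicarboxylic acids had 19 of 20 genes tested, 0 called, 15 below 0 and a median of -0.23 beside -0.01 for all tested genes. At an unadjusted p under 0.05 there were 0 higher and 3 lower, where 4.66% of all tested probes were higher and 7.47% lower. Across all 6 arrays the list median was -0.23 beside -0.25 for all tested genes. There 0 were higher and 1 lower at that threshold, where 0.552% and 3.3% of all probes were. The synthetase Acsl1 stood at -0.73 ± 0.21 (SE; adjusted p = 0.277), the thiolase Scp2 at -0.50 and the very long chain transporter and synthetase Slc27a2 at -0.35. Ehhadh, the bifunctional enzyme needed for dicarboxylic acids, stood at 0.02 ± 0.32 (adjusted p = 0.985), with knockout replicates 1 and 2 at -0.51 and 0.55. Abcd3, which carries such acids into the peroxisome, stood at 0.14 ± 0.18 (adjusted p = 0.779).

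Of PPARA and its partners 7 of 10 genes were tested, 0 rose and 1 fell. Their median was -0.22 beside -0.01 for all tested genes, and across all 6 arrays -0.71 beside -0.25. The receptor Ppara fell (adjusted p = 0.0345, limma), from a log2 mean of 5.82 ± 0.06 (SD, n = 3) in wild type. Its probe was detected on 1 of the first 2 knockout arrays, that of replicate 2, where it stood at -1.09 from that mean, so no fold is given, and the call was kept in 3 of 13 alternatives. The others with the smallest p, Ncor1, Ppargc1b and Rxra, stood at 0.26, -0.36 and -0.22. Of other PPARA targets 15 of 20 were tested. Of these 0 rose and 3 fell, while 12 did not pass, where 0.279% of all tested probes were called lower. The list median was -0.20 beside -0.01 for all tested genes, and across all 6 arrays -0.21 beside -0.25. The 3 that fell were Creb3l3, the fasting hormone Fgf21 and the lipid droplet gene Cidec. Creb3l3 is the gene knocked out here, so its fall was set by the design. Fgf21 was detected on 1 of the first 2 knockout arrays (adjusted p = 0.0255, limma), and Cidec had an adjusted p of 0.0377 (limma). The call was kept in 9 of 13 alternatives for Fgf21 and in 5 of 10 for Cidec, and Cidec was not detected on any knockout array, so no fold is given for either gene. Across all 6 arrays 0 genes of these lists were called.

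**Figure D5:**
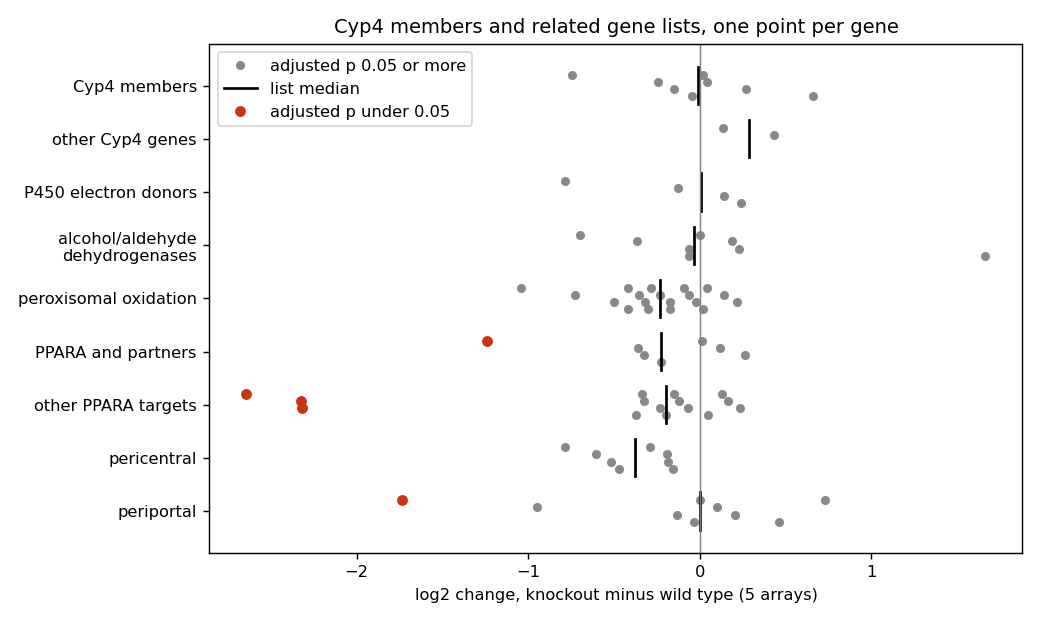
Each point is 1 tested gene's log2 change in the 5 arrays (knockout minus wild type), grouped by list, with the list median as a black line and called genes in red. The Cyp4 members spread from -0.75 to 0.66 around a median of -0.01, and red points appear for Ppara, Creb3l3, Fgf21, Cidec and the periportal gene Pck1.

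Genes of liver zones and of other cell types were measured beside these values. Of pericentral hepatocyte genes 8 of 10 were tested, 0 were called and 8 lay below 0. Their median was -0.38 beside -0.01 for all tested genes. Across all 6 arrays it was -0.31 beside -0.25, and 1 of these genes lay above 0. Those with the smallest p were Cyp7a1 at -0.79, Cyp2e1 at -0.47, Gulo at -0.52 and Slc1a2 at -0.61. Glul stood at -0.15, with knockout replicates 1 and 2 at 0.50 and -0.81. Of periportal genes 9 of 10 were tested, 0 rose and 1 fell, Pck1, with -1.73 ± 0.21 (SE; adjusted p = 0.0227), a call kept in 8 of 13 alternatives, and the list median was -0.00165. Hal, Sds and Ass1 stood at -0.95, 0.73 and 0.46. Marker sums here and below add the normalized signals of all markers with a probe, detected or not. They are on the linear scale with the background offset of 16 subtracted. Of Kupffer cell markers 5 of 6 were detected on all 5 arrays. The sum of that list was 863 to 984 in wild type and 996 to 1155 in knockout replicates 1 and 2. The 5 detected markers lay above 0, from 0.04 for Clec4f and 0.09 for Vsig4 to 0.69 for Adgre1 and 0.95 for Marco, and 0 were called. Across all 6 arrays 3 of them lay below 0 and 2 above, with a median of -0.14 beside -0.25 for all tested genes. Of erythroid markers 3 of 4 were detected on all 5 arrays, with sums of 21420 to 26150 in wild type and 9188 to 23240 in the knockout. The knockout mice differed: in replicates 1 and 2 Hba-a1 stood at -1.38 and -0.002, Hbb-b1 at -1.33 and 0.04 and Alas2 at 0.09 and -0.26. The hepatocyte marker sum was 54960 to 58120 in wild type and 52250 to 55080 in the knockout. Of the 5 cholangiocyte markers Sox9 and Spp1 were detected on all 5 arrays, with log2 changes of 0.36 and 0.18 and 0 called, and Epcam, Krt19 and Krt7 on none. The sum of that list was 345 to 563 in wild type and 540 to 608 in the knockout. Of the adipocyte markers 0 of 4 were detected on all 5 arrays. What part these cells have in the Cyp4 values was not tested.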

How the data were processed

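Per the labels' protocols, RNA was amplified to biotinylated cRNA and hybridised to bead arrays. The deposited intensity of a probe is its average bead signal, per the file headers, on a linear scale and by its values neither normalized nor background-subtracted, and the deposited detection p-value was computed per array. The submitters' processing notes name BeadStudio 3. The authors' value table, also linear intensity, served as an alternative. Its columns matched quantile-normalized array signals within 0.0179 on the log2 scale, with wild-type replicates 2 and 3 exchanged, and the method behind it is not stated in the sources used here.

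The neqc function of limma 3.58.1, run in R 4.3.3, corrected the background (normexp, negative controls estimated through the detection p-values, offset 16), quantile-normalized and took log2. A probe stayed in when its detection p was under 0.05 on 3 or more arrays. The 5 arrays were normalized without the sixth. The linear model (lmFit, eBayes) held genotype alone, and two-sided p-values were adjusted by Benjamini-Hochberg over all kept probes. The linear model alone was tested on simulated data, with arrays of equal quality. Background correction, normalization and the filter were not. A gene stands for its brightest kept probe. Symbols were updated through a gene table of GRCm38.p6 (27740 probes current, 8037 renamed, 9504 unmatched). Promoter windows were aligned with biopython 1.88 and figures drawn with matplotlib 3.10.9.

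Members, lists and the use of 5 arrays were chosen with earlier results of these data known. Named were all members, up to 4 genes of smallest p per pathway list, a few further pathway genes (Ppara, Creb3l3, Por, Aldh3a2, Abcd3, Ehhadh and Fgf21) and the 5 genes nearest to each of 2 members. Some genes that this rule would name are not reported here. Alternatives changed the normalization, background correction, filter, variance model, weights, block and mice used.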

Additional observations from a re-analysis of the deposited data

How the results depend on the processing

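The count of called members was 0 in the 5 arrays and in the 6. In the 5 arrays it was 1 (Cyp4v3) with a trended and robust variance and 0 to 3 when a mouse was left out, the 3 (Cyp4f14, Cyp4f16 and Cyp4v3) without knockout replicate 2, where 16.7% of all probes were called. In the 6 arrays it was 3 with array weights, where 19.5% of all probes were called, and 0 to 0 when a mouse was left out. The other alternatives run gave 0. Of 104 values for single members in the 5 arrays 13 changed sign, and of 120 in the 6 arrays 16 did. Cyp4v3 and Cyp4f16 kept their sign in both sets under every alternative run, and Cyp4f15 in the 6 arrays. Of the values that changed sign only that of Cyp4f14 with array weights was called, and the cause was not tested.

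In the 5 arrays median scaling, which moved the median of all probes to -0.42, gave -0.73 for Cyp4a12b, -0.37 for Cyp4a14 and -0.48 for Cyp4f14, and cyclic loess gave -0.02 (-0.0177) for Cyp4a12b. Leaving out a mouse gave -0.794 to 0.303 for Cyp4a12a, -0.283 to 0.314 for Cyp4a12b, -0.0379 to 0.119 for Cyp4a14, -0.0746 to 0.0092 for Cyp4f13, -0.154 to 0.702 for Cyp4f14 and -0.246 to 0.00872 for Cyp4f15. In the 6 arrays median scaling, with a median of all probes of -0.87, gave -2.29 for Cyp4a12a, -2.04 for Cyp4a12b, -1.74 for Cyp4a14 and -1.78 for Cyp4f13. Array weights gave -0.727 for Cyp4a12a, -0.231 for Cyp4a12b, -0.00658 for Cyp4a14, -0.0524 for Cyp4f13 and 0.591 for Cyp4f14 (called), and cyclic loess gave 0.0834 for Cyp4f14. Leaving out a mouse in the 6 arrays gave -0.28 to 0.435 for Cyp4a12a, -0.0339 to 0.115 for Cyp4a14, -0.0453 to 0.682 for Cyp4f13 and -0.602 to 0.27 for Cyp4f14.

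With the replicate block the Cyp4f13 change in the 5 arrays was 0.00834, and no member's call changed in either set. The numbers were not taken as pairs. In the 6 arrays deviations of same-numbered mice correlated at -0.0452, -0.0482 and 0.0368 for replicates 1, 2 and 3. These cannot decide whether mice were paired, as the knockout mean they are taken from includes the dim replicate 3. The highest correlation was that of wild-type replicate 2 with knockout replicate 1 (0.0753). Next came wild-type replicate 1 with knockout replicate 2 (0.0744). Over all probes of the 5 arrays the count of higher and lower calls was 9 and 40 as reported, 13 and 34 with the block, 25 and 58 with cyclic loess, 0 and 4 with median scaling, 0 and 1 with no filter, and 30 and 92 with a trended and robust variance. It was 787 and 1447 without knockout replicate 2, 13 and 28 without knockout replicate 1, and 2 and 13, 1 and 8, and 2 and 7 without wild-type replicates 1, 2 and 3. It was 18 and 65 both without background correction and with the authors' value table, and 8 and 39 with the stricter filter. The Cyp4f16 signal lay close to background, and whether the bright Cyp4a14 probe was near saturation was not tested.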
